A study of Mus musculus with 6 samples.

Results

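Trp63 and a set of basal epithelial genes were followed across 6 two-colour arrays of mouse ventral prostate RNA. The set holds 9 genes, Trp63, Col17a1, Krt5, Krt14, Krt15, Krt17, Itgb4, Itga6 and Lamb3. A probe was taken where its gene name on the array, or the symbol of its RefSeq accession, was one of these, which gave 13 of the 41174 probes. Of the 13 probes, 12 passed the filter on dim probes, and a second Trp63 probe did not. Trp63, Col17a1, Itgb4 and Itga6 each had 2 probes, and the brighter one carries the gene's plain name here.

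The arrays held RNA of FVB mice. The fl26 line carries a transgene for full-length 15-LOX2, a lipid-oxygenating enzyme, and was sampled at 2.5 months. The svb9 line carries a transgene for the splice variant b of the same enzyme and was also sampled at 2.5 months. Old wild type mice were 15 months old, and young wild type mice were 2.5 months old. Each of the fl26, svb9 and old wild type groups had 2 arrays with its RNA in the red channel (Cy5), and young wild type RNA was in the green channel (Cy3) on all 6 arrays. Each construct is represented by 1 line, and the promoter that drives it is not given in the sources used here. The labels describe pools of 3 mice and the design text pools of 6.

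p63, the protein made from Trp63, is the transcription factor that marks the basal cells lying under the luminal secretory cells of prostate epithelium. Hemidesmosomes anchor basal cells to the basement membrane. In them the integrin chains encoded by Itga6 and Itgb4 and the collagen XVII encoded by Col17a1 bind a laminin that contains the Lamb3 chain, and on the inner side they hold keratin filaments. Keratins encoded by Krt5 and Krt14 pair in basal cells, and Krt15 and Krt17 encode further basal keratins.

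RefSeq promoter windows (GRCm38.p6) were available for 4 of the 9 genes, Col17a1, Krt5, Krt14 and Lamb3. The 250 bases before the start of Col17a1 and of Krt5 are shown because these were the hemidesmosome gene and the keratin whose fl26 arrays lay closest together, a choice made after their values were seen. Both genes lie on the minus strand, and the sequences read 5′ to 3′ towards the start, with capitals marking matches to the core of p53-family sites, 2 copies of CNNG with 6 bases between them, searched on both strands.
Col17a1, chr19:47692043-47692292: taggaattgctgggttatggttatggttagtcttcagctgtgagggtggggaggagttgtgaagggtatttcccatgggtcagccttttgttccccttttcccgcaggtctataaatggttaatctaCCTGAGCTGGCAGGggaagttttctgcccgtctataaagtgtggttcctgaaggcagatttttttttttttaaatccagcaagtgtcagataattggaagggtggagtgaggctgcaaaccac
Krt5, chr15:101712906-101713155: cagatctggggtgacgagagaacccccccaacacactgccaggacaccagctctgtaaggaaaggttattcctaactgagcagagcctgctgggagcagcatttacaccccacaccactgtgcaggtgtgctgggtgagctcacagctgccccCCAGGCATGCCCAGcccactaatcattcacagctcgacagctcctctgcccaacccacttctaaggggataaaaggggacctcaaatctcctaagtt
Each window shown held 1 match, which began at position -123 in Col17a1 and -97 in Krt5, counted from the start. Of the windows not shown, that of Krt14 held 0 matches and those of Lamb3 held 3 and 2. This loose core occurred in 63.5% of the 32851 windows of the same length. No window of these 4 genes held the AP-1 site TGANTCA, which occurred in 6.75% of windows.

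The tissue label was set against marker genes. The ventral prostate genes Sbp, Spink1 and Ang were well above background in the red channel on 6 arrays and Mt3 on 5, whereas of 8 genes listed for seminal vesicle and other lobes, Svs2, Svs3a, Svs4, Svs6 and Pate4 were above background on 0 arrays in either channel. Of the others on that list, Svs5 was above background in green on 3 arrays, Svs1 on 1 array in each channel, and Msmb on 6 arrays in both. The arrays differed in the strength of the red channel. The first old wild type array stood apart, with 3219 probes well above background in red, against 13600 to 27833 on the other 5 arrays. In green, 24837 to 30382 probes were above background. On the first old wild type array only Krt15, of the 9 genes, was above background in red, so its other values there rest on dim spots. The file headers give 3 image extraction dates, and each date covers 2 arrays of different groups. No spot of these genes was saturated. A log2 ratio of 0 is the level of young wild type, and because the dyes were not swapped, dye and group cannot be told apart against young wild type. A dye effect that is the same on all arrays cancels between fl26, svb9 and old wild type. The strength of the red channel differed between arrays, and a dye effect particular to 1 array does not cancel.

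The comparison of fl26 with young wild type asked how the full-length transgene line differs at the same age. Trp63 and Col17a1 stood 1.77- and 1.92-fold above young wild type in fl26, closest to the threshold of all the basal genes. Neither passed it in the fit reported here. Under the 16 alternatives Trp63 passed in 4 and Col17a1 in 3, the replicate block among them. Krt15, Krt5 and Krt14 were also higher on both fl26 arrays, by smaller amounts, while Krt17, Itgb4, Itga6 and Lamb3 lay close to 0. By limma, 0 of the 12 tested probes had an adjusted p under 0.05, against 14 of all 27860 probes tested (0.0503%). At an unadjusted p under 0.05 there were 4 of 12, all higher, against 10.2% of all probes, or 5.75% counting those that were higher. With the replicate number as a block 2 of the 12 passed, Trp63 and Col17a1, among 849 calls over all probes. The labels do not say if one pool of young wild type RNA served several arrays, so it is not known whether the spread between arrays, on which these p-values rest, takes in the spread between young wild type pools.

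Trp63 (probe A_51_P216550) had log2 ratios of 0.78 and 0.86 on the fl26 arrays, 0.06 and 0.10 on the svb9 arrays, and 0.37 and 0.20 on the old wild type arrays. Both fl26 arrays lay above the other 4, as they did for 6.12% of all tested probes with 6 values. In raw mean intensity the fl26 spots read 1685 and 781 over red backgrounds of 80 and 78, and the young wild type RNA on the same spots read 377.5 and 486 over green backgrounds of 41. On the svb9 arrays, at log2 ratios of 0.06 and 0.10, red read 1084 and 302.2 and green 420.4 and 423.1. Raw red over green is therefore not the size of a difference. The fl26 mean was 0.82 ± 0.05 (SD, n = 2), a 1.77-fold difference with a 95% interval of 0.63 to 1.01 on the log2 scale. Its adjusted p by limma was 0.0589, and it ranked 15 of 27860 by p-value, next after the 14 probes called. With the image extraction date as a term the log2 ratio was 0.80 with an adjusted p of 0.0449. With the replicate block the adjusted p by limma was 0.0101, and over the 16 alternatives the adjusted p ran from 0.0101 to 0.9998 with log2 ratios of 0.78 to 1.10. The second Trp63 probe (A_52_P17264) was well above background on 0 arrays in red and 1 in green, so it gave no reading of the gene.

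Col17a1 (probe A_51_P358344) had log2 ratios of 0.97 and 0.92 on the fl26 arrays, -0.12 and 0.30 on the svb9 arrays, and -0.20 and -0.21 on the old wild type arrays. The fl26 values stood above the other 4, which lay on both sides of 0. The fl26 mean was 0.94 ± 0.03 (SD, n = 2), a 1.92-fold difference with a 95% interval of 0.68 to 1.20 on the log2 scale. The adjusted p by limma was 0.0996, with the extraction date as a term 0.0368, with the replicate block 0.0136, and over the 16 alternatives 0.0136 to 0.9998. A dimmer second probe of the gene (A_51_P358342), above background in red on 2 of 6 arrays, read 0.23 and 0.05 in fl26, -0.10 and 0.06 in svb9, and -0.09 and -0.19 in old wild type. Its fl26 mean of 0.14 had a 95% interval of -0.07 to 0.35, so the probes of this gene disagree in size.

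**Figure D1:**
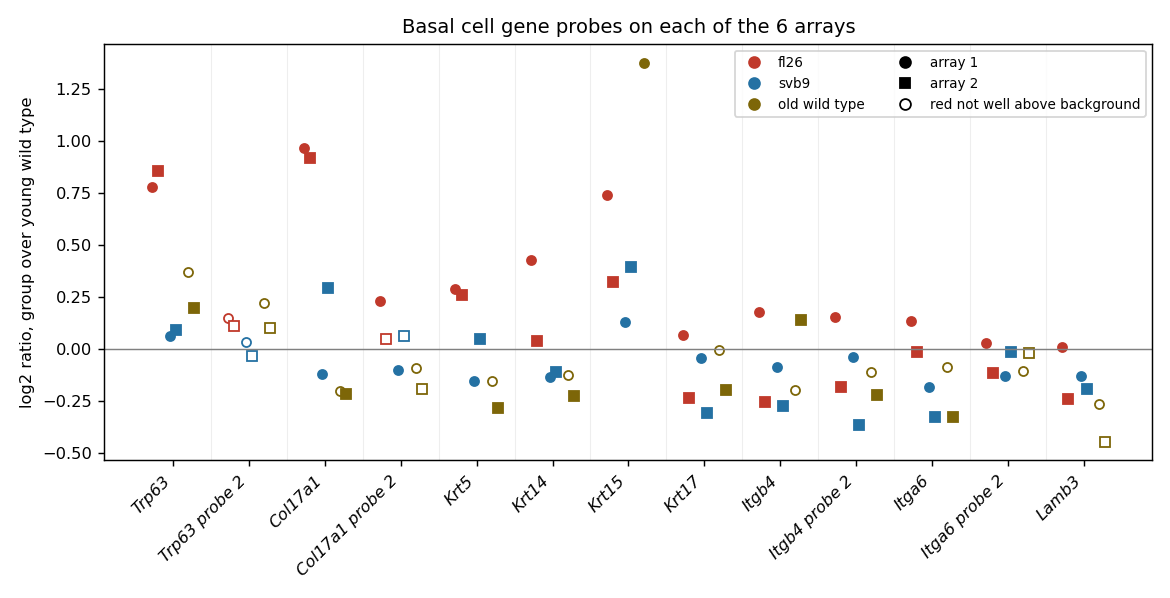
Log2 ratios of each of the 13 probes (x axis) on each of the 6 arrays, as group over young wild type (y axis); colour gives the group, circles and squares the first and second array, and open symbols a red signal not well above background. Trp63 and Col17a1 reach 0.78 to 0.97 on the fl26 arrays and stay at or under 0.37 elsewhere, and Krt15 reaches 1.38 on the first old wild type array.

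The keratins did not move as 1 block. Krt5 had log2 ratios of 0.29 and 0.26 in fl26, -0.15 and 0.05 in svb9, and -0.15 and -0.28 in old wild type. The fl26 values were above all others, at a mean of 0.27 (1.21-fold, adjusted p by limma 0.365). Krt14, the partner keratin of Krt5, had 0.43 and 0.04 in fl26, -0.13 and -0.11 in svb9, and -0.12 and -0.22 in old wild type. Most of its fl26 mean of 0.23 came from the first array. Krt15 had 0.74 and 0.32 in fl26 (mean 0.53, 1.45-fold, adjusted p by limma 0.313) and 0.13 and 0.40 in svb9, so these groups overlapped. Krt17, a keratin induced in stressed and activated epithelium, had 0.07 and -0.23 in fl26, -0.04 and -0.31 in svb9, and -0.00 and -0.20 in old wild type.

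**Figure D2:**
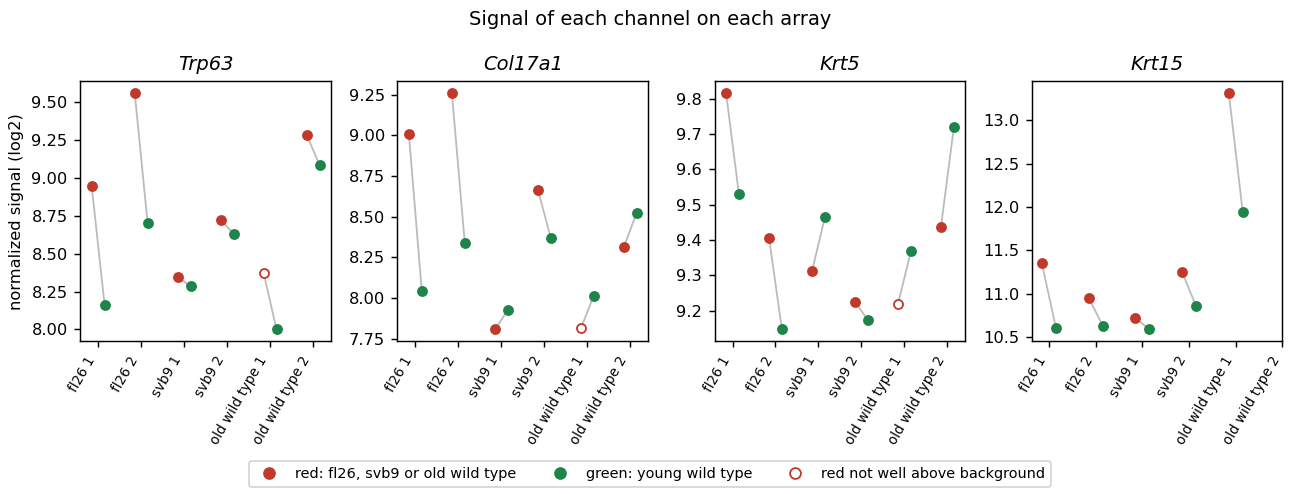
Normalized signal on the log2 scale (y axis) of Trp63, Col17a1, Krt5 and Krt15 on each array (x axis), with the red channel joined to the green young wild type channel of the same spot; open red circles were not well above background. For Trp63 the red point lies 0.78 and 0.86 above the green point on the fl26 arrays, while the green young wild type signal itself runs from 7.999 to 9.09 over the 6 arrays. Krt15 has no value on the second old wild type array.

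The integrin and laminin genes showed no shift larger than the spread between arrays in fl26. Itgb4, the beta chain of the hemidesmosome integrin, had log2 ratios of 0.18 and -0.25 in fl26, -0.08 and -0.27 in svb9, and -0.20 and 0.14 in old wild type. Its second probe read 0.16 and -0.18 in fl26, -0.03 and -0.36 in svb9, and -0.11 and -0.22 in old wild type. A cDNA clone probe that matches Itgb4 but lies outside the rule for the set read -0.04 and -0.19 in fl26, 0.03 and 0.01 in svb9, and -0.10 and -0.14 in old wild type. It was lower in fl26 than in svb9 while the other probes of the gene had higher means in fl26. The clone probe was well above background in red on 2 arrays and the other Itgb4 probes on 5, so its direction rests mostly on dim red spots. Itga6, its partner chain, had 0.13 and -0.01 in fl26, -0.18 and -0.32 in svb9, and -0.08 and -0.32 in old wild type. Its fl26 arrays were both above the other 4, yet the fl26 mean was only 0.06, with a 95% interval of -0.16 to 0.28. Its second probe read 0.03 and -0.11 in fl26, -0.13 and -0.01 in svb9, and -0.10 and -0.02 in old wild type. Lamb3 had 0.01 and -0.24 in fl26, -0.13 and -0.19 in svb9, and -0.26 and -0.44 in old wild type. The fl26 directions of Krt17, Itgb4, Itga6 and Lamb3 each turned under 2 of the 16 alternatives, whereas those of Trp63, Col17a1, Krt5, Krt14 and Krt15 turned under 0.

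The spread between these genes was therefore wide within 1 group. Over the 9 genes the median fl26 log2 ratio was 0.29 on the first array, where 9 of 9 were above 0, and 0.04 on the second, where 5 of 9 were. Both fl26 arrays lay above the 4 svb9 and old wild type arrays for 5 of the 11 tested probes with 6 values, those of Trp63, Col17a1, Krt5, Krt14 and Itga6, against 6.12% of all such probes.

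The difference between fl26 and svb9 removes a dye effect that is the same on all arrays. For all 12 tested probes the fl26 mean was above the svb9 mean, against 52% of all probes. By limma 0 of 12 had an adjusted p under 0.05 (0% of all 27860 probes) and 3 of 12 an unadjusted p under 0.05 (2.18% of all). Of the lists of other hemidesmosome and other basal genes, 5 of 8 and 14 of 18 were higher in fl26, with median differences of 0.05 and 0.08. Of markers of other cell types, 8 of 8 fibroblast, 7 of 7 endothelial and 6 of 6 macrophage genes were also higher in fl26. So were 8 of 11 luminal and 4 of 8 urothelial and squamous genes. Of smooth muscle, Schwann cell and erythrocyte genes, 1 of 6, 1 of 4 and 1 of 3 were higher. The part of these cell types in the result was not tested. Leaving out the first fl26 array turned the difference below 0 for Krt17 (-0.06), Itgb4 (-0.08), the second Itga6 probe (-0.04) and Lamb3 (-0.08), and leaving out an svb9 array did so for Krt17 (-0.04) and the second Itga6 probe (-0.03). The difference of log2 ratios was 0.74 for Trp63, with a 95% interval of 0.47 to 1.01 and an adjusted p of 0.597. It was 0.85 for Col17a1, with an interval of 0.49 to 1.22 and an adjusted p of 0.987. Krt5 differed by 0.32 (0.04 to 0.61), and the intervals of the other probes included 0. The pair of arrays that shared an image extraction date, the first of each line, differed by 0.72 for Trp63 and by 1.08 for Col17a1.

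Set against old wild type, fl26 was higher for 10 of 12 probes, and again 0 passed by limma (0% of all 27626 probes), with 5 of 12 at an unadjusted p under 0.05 (7.74% of all). Col17a1 was 1.15 higher on the log2 scale, with a 95% interval of 0.78 to 1.52 and an adjusted p of 0.285. Trp63 was 0.53 higher (0.27 to 0.80), Krt5 0.49 higher and Krt14 0.41 higher. Krt15 went the other way, with a difference of -0.84. Over the alternatives the difference ran from 0.38 to 2.22 for Trp63, from 1.06 to 2.64 for Col17a1 and from -1.05 to 3.91 for Krt15. Between the second fl26 array and the first old wild type array, which shared an extraction date, the difference was 0.48 for Trp63 and 1.12 for Col17a1, but both red spots on that old wild type array were not well above background, at 94.3 over a background of 75 for Trp63 and 83.9 over 79.5 for Col17a1.

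**Figure D3:**
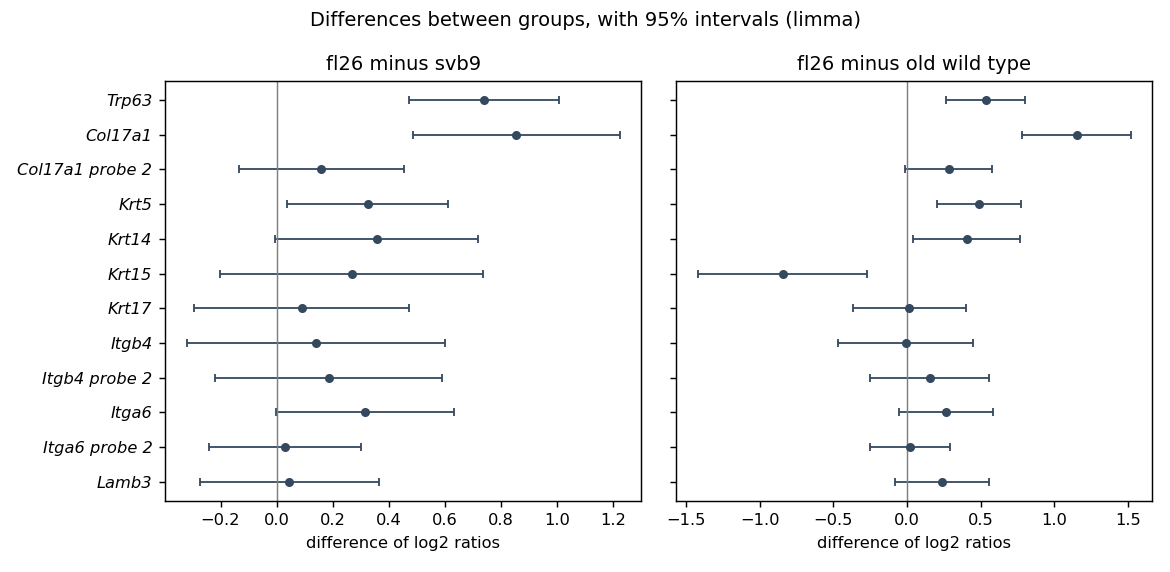
Difference of log2 ratios (x axis) between fl26 and svb9 on the left and between fl26 and old wild type on the right, for the 12 tested probes; bars are 95% intervals from limma. The intervals of Trp63, Col17a1 and Krt5 lie above 0 in both panels, while those of Itgb4, Krt17 and Lamb3 include 0.

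In svb9 the log2 ratios ran from -0.25 for Itga6 to 0.26 for Krt15, and 3 of 12 probes were above young wild type, against 48.7% of all probes. By limma 0 of 12 probes passed (0% of all 27860), and 1 had an unadjusted p under 0.05 (4.45% of all), that of Itga6. Trp63 was at 0.08 with a 95% interval of -0.11 to 0.27, and Col17a1 at 0.09 with an interval of -0.17 to 0.35.

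In old wild type 0 of 12 probes passed by limma (0% of all 27626), and 4 had an unadjusted p under 0.05 (11.4% of all). With the replicate block 2 passed, Krt15 with an adjusted p by limma of 0.0276 and Lamb3 with 0.0479, among 1210 calls over all probes. Krt15 had the highest log2 ratio, 1.38 on the first array, a 2.60-fold difference with an adjusted p of 0.175. It rests on that 1 array, whose raw red intensity before normalization was 245.6 against 2277 in green, because the spot on the second array was marked as an outlier. With outlier spots kept the arrays read 1.01 and 0.83. Trp63 was 0.29 above young wild type, Krt5 was at -0.22 and Lamb3 at -0.35. In the fit without the block Lamb3 had an adjusted p by limma of 0.256. The red spots of Lamb3 were not well above background on either array, so the size of its difference rests on dim spots. Without the first array Trp63 was at 0.20. With median centring in place of loess, Trp63 and Krt15 in old wild type turned below 0, to -1.13 and -3.06. Trp63 read 0.37 and 0.20 in old wild type and 0.06 and 0.10 in svb9. The 0.37 came from a red spot not well above background, and the difference between these groups was not among the comparisons tested.

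Other hemidesmosome genes were read from a list of 8, all of them tested. By limma 0 passed in fl26 (0.0503% of all 27860 probes), and the median log2 ratio was 0.06, against 2e-04 over all probes. Dst, which encodes a plakin that links keratin to the hemidesmosome, read 0.53 and 0.16 in fl26, against 0.02 and 0.26 in svb9 and -0.14 and -0.21 in old wild type. Col7a1, the anchoring fibril collagen, read 0.42 and 0.16 in fl26, -0.04 and -0.43 in svb9, and 1.01 and 1.29 in old wild type, where its adjusted p was 0.0763. Cd151, a tetraspanin that binds the integrin, was lower on the second array of each group. It read 0.12 and -0.72 in fl26, -0.13 and -0.59 in svb9, and -0.20 and -0.58 in old wild type.

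Of 19 other genes of the basal programme, 18 were tested and 0 passed in fl26 by limma (0.0503% of all 27860 probes), with a median of 0.04. By their means 12 were higher and 6 lower, the lowest being Krt6a at -0.23. Of the 19 genes, 18 and 13 were well above background in red on the fl26 arrays, 18 and 12 on the svb9 arrays, and 2 and 9 on the old wild type arrays. The values of the others rest on dim red spots. Tfap2c, an AP-2 transcription factor, read 0.32 and 0.37 in fl26, -0.00 and 0.16 in svb9, and -0.13 and 0.17 in old wild type. Sfn, which encodes a 14-3-3 protein of epithelial cells, read 0.19 and 0.33 in fl26 and 0.08 and 0.20 in svb9, which overlapped. In old wild type Sfn read -0.18 and -0.24.

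Markers of some other cell types moved on the same arrays. The fibroblast list had 7 of 8 genes higher in fl26 by their mean, with 8 of 8 above background on both fl26 arrays. Its median log2 ratio was 0.76 and -0.12 on the fl26 arrays, 0.29 and -0.05 on the svb9 arrays, and -0.04 and -0.31 on the old wild type arrays. The mean log2 level of the list in the red channel was 9.47 and 9.18 in fl26, 9.04 and 9.17 in svb9, and 9.02 and 8.87 in old wild type. The endothelial list, with 7 of 7 genes higher in fl26, stood at 0.44 and -0.13, and the macrophage list, with 5 of 6 higher, at 0.32 and 0.07 on the fl26 arrays. The luminal list stood at -0.16 and 0.17 there, and the smooth muscle list, with 2 of 6 genes higher in fl26, at 0.03 and -0.23. On the second fl26 array, where Trp63 and Col17a1 read 0.86 and 0.92, the fibroblast and endothelial medians were below 0. Krt14, Krt15, Krt5, Krt17, Itgb4, Itga6, Lamb3 and Col17a1 were higher on the first fl26 array than on the second, as the fibroblast, endothelial and macrophage lists were, and Trp63 was not, and the part of the lists in those values was not tested. In bulk tissue, fewer or more cells of a type and less or more RNA per cell cannot be told apart.

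**Figure D4:**
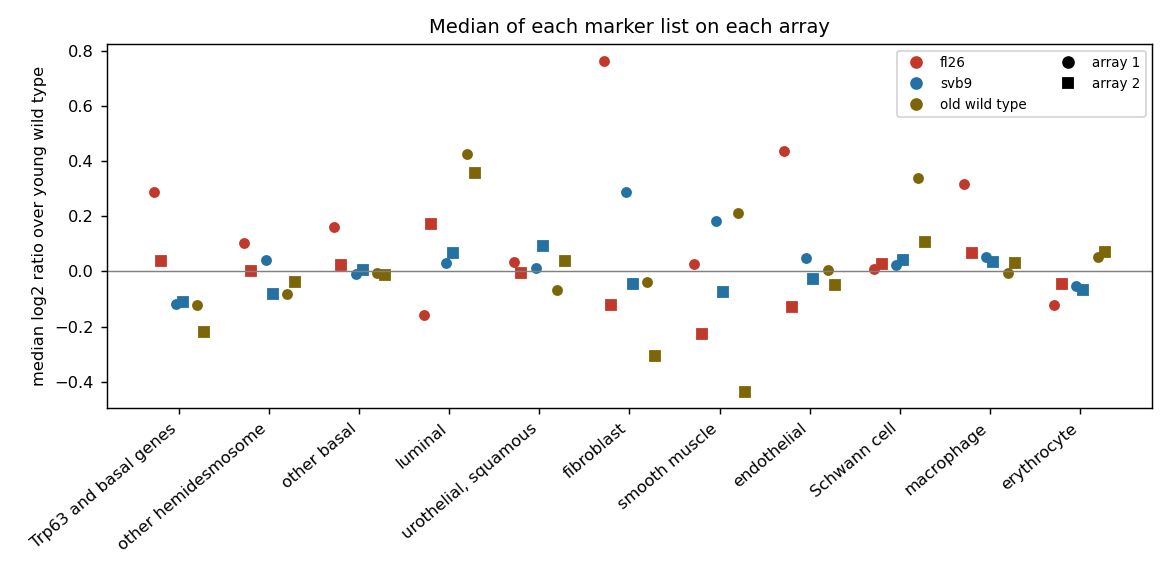
Median log2 ratio over young wild type (y axis) of the 9 basal genes and of other marker lists (x axis) on each array, with circles for the first and squares for the second array of a group. The first fl26 array stands at 0.76 for the fibroblast list and 0.29 for the 9 basal genes, and the second at -0.12 and 0.04.

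The genes whose log2 ratios were most like those of Trp63 over the 6 arrays, among 717 probes with a range of at least 1 on the log2 scale, were Mgll, which encodes a monoglyceride lipase (Pearson r 0.98), Gabra4 (0.96), Krt13 (0.91), Gata2 (0.90) and Rb1cc1 (0.90). Col17a1 ranked 22 of these 717, with r 0.83. Trp63 itself had a range of 0.79. Itga6 (r 0.86), Krt5 (0.79), Krt14 (0.75), Lamb3 (0.33), Krt17 (0.24) and Itgb4 (0.11) had ranges under 1, so they were not among the 717. Krt15 (0.17) had values on 5 arrays and was not among them either. Krt13 read 1.005 and 0.80 in fl26, -0.35 and -0.11 in svb9, and 0.10 and 0.37 in old wild type. Its brighter probe, on the list of urothelial and squamous markers, read 0.01 and 0.42 in fl26, so the probes of Krt13 disagree. The 6 points all have young wild type in the green channel, and they come from 3 groups of 2 arrays.

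**Figure D5:**
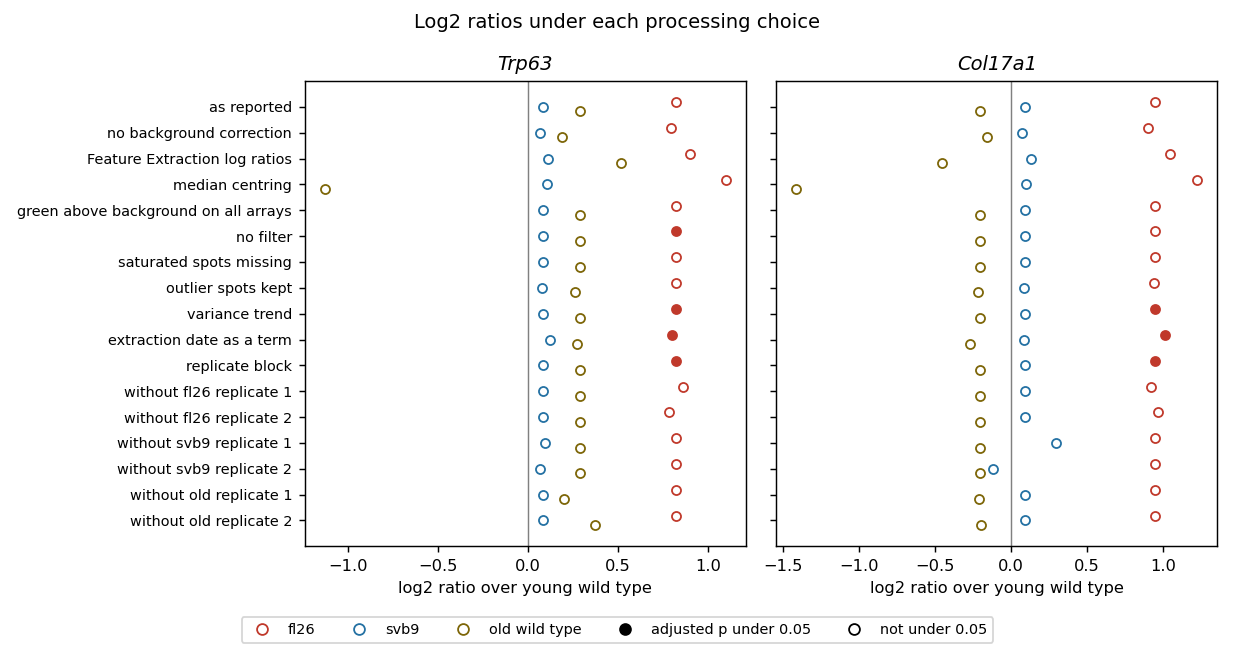
Log2 ratio over young wild type (x axis) of Trp63 and Col17a1 under each processing choice (y axis), with filled points for an adjusted p under 0.05. The fl26 points stay between 0.78 and 1.23 under every choice, and are filled for Trp63 in 4 and for Col17a1 in 3 of 16 alternatives.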

How the data were processed

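RNA of the red and green channels was hybridized to Agilent whole mouse genome arrays. Per the file headers, the deposited spot intensities (mean signal and median background of each channel) came from Feature Extraction A.7.5.1, without normalization, and the same software subtracted background and corrected for dye in making the deposited log10 ratios (red over green). Deposited flags, another kind of value per the file headers, mark spots well above background, saturated or outlying. The deposited series table held the same log10 ratios, rounded.

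From the intensities, control spots (2256 of 43790) and outlier spots were left out, background was corrected by normexp (offset 50), arrays were loess-normalized, and replicate spots averaged to log2 ratios of 41174 probes, using limma (3.58.1) under R (4.3.3). The number of arrays, 2 per group, limits the precision. The 27860 probes that some group had well above background on both its arrays, in one channel, were tested with limma: 3 group means, moderated statistics, and Benjamini-Hochberg adjustment over all probes in each of 5 comparisons (27626 with a value in those with old wild type). On simulated data the fit recovered 99 of 100 probes changed by 1 on the log2 scale and 100 of 100 changed by 2, in fl26. These shares do not carry over to the real arrays, where Ang at 1.36 in fl26 had an adjusted p by limma of 0.119. An uncalled probe is therefore not shown to be unchanged. Channel levels were scaled by Aquantile after loess and are open to dye bias.

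Every probe the rule took is reported, the brightest as the gene's value. Of the hemidesmosome and basal programme lists, genes that passed were to be named, otherwise the 3 with the largest change in fl26. One gene that this rule names is not reported here. The probes most like Trp63 were the 5 with the highest Pearson r among named probes above background in green on all arrays. Genes and lists were chosen with earlier results of these data known. The design text describes the duplicates as independent pools, and p-values measure only the spread between these samples. Gene names of 20716 probes came from RefSeq accessions, and the array files name no genome build. Same-numbered arrays deviated together from their group means, with correlations of 0.61 between fl26 and svb9, 0.33 between fl26 and old wild type and 0.17 between svb9 and old wild type. No label says that a number marks a shared day or batch, so the pairing comes from these data, and fits with the replicate number as a block stand beside the results they change. Alternatives numbered 16.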

Additional observations from a re-analysis of the deposited data

How the results depend on the processing

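Calls over all probes depended on the processing of the spots and on the model fitted. In fl26 there were 14 calls, but 2 without background correction, 6 with the Feature Extraction log ratios, 0 with median centring, 63 with a variance trend and 103 with the extraction date as a term. In old wild type there were 0 calls, but 3 with green above background on all arrays, 8 with outlier spots kept, 176 with the trend and 11 with the date. Between fl26 and svb9 there were 0, but 4 with the trend and 2 with the date, and between fl26 and old wild type 0, but 2 and 5. In svb9 every alternative gave 0. Leaving out 1 array gave 0 to 1 calls in fl26, 0 to 2 in old wild type and 0 in the other comparisons. Of the basal genes in fl26, 1 probe passed with no filter, that of Trp63 (adjusted p by limma 0.0475), and 2 with the trend (0.0436 for Trp63, 0.0318 for Col17a1) and with the date; leaving out 1 array gave 0.

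The replicate number as a block gave 849 calls in fl26, 1210 in old wild type, 10 between fl26 and svb9 and 25 between fl26 and old wild type. With the block 2 basal probes passed in fl26 (adjusted p by limma 0.0101 for Trp63 and 0.0136 for Col17a1) and 2 in old wild type (Krt15 0.0276, Lamb3 0.0479). The block changed no other call of a basal probe.

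Of 958 values of single basal probes under an alternative, 9 newly passed, 84 moved by more than the residual spread and 38 changed sign. No basal probe was called in the reported fit, so there was no called value that could change sign. Median centring leaves the weak red channel uncorrected along intensity. It had array medians over all probes of 0.35 and -0.04 for fl26, 0.29 and -0.17 for svb9, and -0.45 and -0.24 for old wild type, and put Trp63 in old wild type at -1.13 and Krt15 there at -3.06. Without the first old wild type array Krt15 had no value in that group. On that array 1 of the 9 genes was above background in red.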
